A study of Mus musculus with 10 samples.

Results

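The type 2 cytokine genes examined here are Il4, Il13, Il5, Il3 and Csf2, 5 of the 23992 gene symbols in the deposited tables. They were taken by symbol, and where a symbol had several transcript rows the row with the highest mean reads stood for the gene. All 5 symbols were found. RNA of mouse regulatory T cells (Tregs) of the C57BL/6J strain was sequenced in 10 libraries of 4 groups. The TCR + TSLP group (2 libraries) held wild-type nTregs of the spleen kept for 24 h with anti-CD3 and anti-CD28, antibodies that stimulate the T cell receptor (TCR), and with the cytokine TSLP. The TCR group (2 libraries) held wild-type nTregs of the spleen kept for 24 h with the same antibodies alone. The Crlf2-deleted group (3 libraries) held Tregs from allergic lung tissue of OVA-immunized Crlf2fl/fl Foxp3YFP-Cre mice, which carry a floxed Crlf2 together with Cre recombinase expressed from the Foxp3 gene. The lung control group (3 libraries) held Tregs from allergic lung tissue of OVA-immunized Foxp3YFP-Cre mice, which carry the same Cre and are labelled wild-type. Because Cre comes from Foxp3, deletion is directed to cells that express Foxp3. The spleen groups ask what TSLP adds to receptor stimulation, and the lung groups ask what loss of the TSLP receptor chain does in Tregs of an allergic tissue.

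Il4, Il13 and Il5 are the signature cytokines of T helper 2 (Th2) cells and of group 2 innate lymphoid cells (ILC2). Il4 drives Th2 differentiation and IgE switching, Il13 drives mucus production and airway reactivity, and Il5 supports eosinophils. Il3 supports mast cells and basophils, and Csf2 encodes GM-CSF, which acts on myeloid cells. TSLP is released by epithelium, and its receptor pairs the Crlf2 product with the IL-7 receptor chain encoded by Il7r and signals largely by STAT5. Stable Tregs are known for keeping these cytokine genes low.

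The 5 genes lie together on chromosome 11 (build mm10, which is GRCm38). Il4 spans 53612460 to 53618665 on the minus strand and Il13 spans 53631323 to 53634702 on the minus strand. Il5 spans 53720794 to 53725103 on the plus strand. Csf2 spans 54247270 to 54249899 and Il3 spans 54265085 to 54267279, both on the minus strand. The gap between Il4 and Il13 is 12.7 kb and that between Csf2 and Il3 is 15.2 kb, while 522 kb separate Il5 from Csf2. In the GENCODE annotation of the same build, the antisense gene Gm12214 overlaps Il5 by 666 bp and Gm12223 overlaps Csf2 by 2300 bp. No source used here states whether counting used strand. Reads of Il5 and Csf2 therefore cannot be told apart from reads of these antisense genes.

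The promoters are shown because 4 of these genes rose with TSLP and the fifth did not pass the test, and because the 2 deposited rows of Il4 begin at different starts. All 5 genes were matched in the RefSeq promoter table (GRCm38.p6), with 6 starts, 2 of them for Il4. Each sequence is the 250 bases upstream of the start, 5′ to 3′ on the gene's strand. Capitals mark matches to the motifs searched on both strands, which were GATA, GGAAA (the NFAT core), TGANTCA (AP-1), TTC and GAA with 3 or 4 bases between them (STAT) and TATAA. The intervals are chr11:53618666-53618915 for the upstream start of Il4, chr11:53617339-53617588 for its downstream start, chr11:53634703-53634952 for Il13, chr11:54267280-54267529 for Il3 and chr11:54249900-54250149 for Csf2, all on the minus strand, and chr11:53720544-53720793 for Il5 on the plus strand.
Il4, upstream start: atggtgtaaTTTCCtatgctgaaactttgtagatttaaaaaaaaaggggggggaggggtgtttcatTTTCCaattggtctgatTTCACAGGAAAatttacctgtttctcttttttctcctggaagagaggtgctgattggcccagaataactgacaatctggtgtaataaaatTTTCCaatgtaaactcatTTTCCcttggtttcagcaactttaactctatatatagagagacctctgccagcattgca
Il4, downstream start: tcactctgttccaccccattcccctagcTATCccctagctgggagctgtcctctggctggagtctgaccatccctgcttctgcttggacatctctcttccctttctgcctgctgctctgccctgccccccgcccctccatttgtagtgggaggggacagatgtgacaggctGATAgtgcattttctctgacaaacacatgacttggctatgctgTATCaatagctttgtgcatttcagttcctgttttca
Il13: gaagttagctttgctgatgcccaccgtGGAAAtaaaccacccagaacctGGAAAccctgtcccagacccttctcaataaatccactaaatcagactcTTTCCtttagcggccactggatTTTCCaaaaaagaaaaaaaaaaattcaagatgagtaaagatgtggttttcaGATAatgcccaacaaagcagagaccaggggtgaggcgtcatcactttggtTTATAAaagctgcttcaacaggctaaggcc
Il5: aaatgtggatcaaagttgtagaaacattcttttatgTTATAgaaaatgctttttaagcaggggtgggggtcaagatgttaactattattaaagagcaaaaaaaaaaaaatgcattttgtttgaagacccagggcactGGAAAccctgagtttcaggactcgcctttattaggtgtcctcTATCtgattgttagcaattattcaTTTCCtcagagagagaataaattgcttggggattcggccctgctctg
Il3: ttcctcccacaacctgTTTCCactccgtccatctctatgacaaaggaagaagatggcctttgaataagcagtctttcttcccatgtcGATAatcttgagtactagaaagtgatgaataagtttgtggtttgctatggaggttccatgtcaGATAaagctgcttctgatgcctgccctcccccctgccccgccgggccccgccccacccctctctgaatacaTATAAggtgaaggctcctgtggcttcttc
Csf2: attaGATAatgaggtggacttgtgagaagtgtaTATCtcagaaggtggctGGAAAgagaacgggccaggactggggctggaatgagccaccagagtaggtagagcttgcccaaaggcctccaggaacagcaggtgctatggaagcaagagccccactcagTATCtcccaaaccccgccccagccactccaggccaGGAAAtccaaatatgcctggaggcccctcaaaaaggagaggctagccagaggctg
GGAAA was found in 5 of the 6 windows, against 55.6% of all 32851 promoters of the table cut to the same length. The upstream start of Il4 held 5 of these matches and Il13 held 4, and 6.39% of all promoters held 3 or more. GATA was found in 5 of the 6 windows, against 53.6% of all promoters, and the window without it was the upstream start of Il4. The downstream start of Il4 and the Csf2 promoter each held 3 GATA matches, a number that 9.62% of all promoters reached or passed. TATAA was found in 3 of the 6, against 22.8%, and lay at -29 to -25 from the start in both Il13 and Il3. The AP-1 letters were in none of the 6 windows and in 6.75% of all promoters. Of the STAT spacings, the one of 3 bases was in 0 of the 6 windows (7.02% of all promoters) and the one of 4 bases in 1, the upstream start of Il4 (5.85% of all promoters), where it shares letters with a GGAAA match. These matches describe the letters and are not evidence of binding.

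Reads assigned to genes, with 1 row per symbol, numbered 34852308 and 51671901 in the TCR + TSLP libraries, 27866031 and 27237313 in the TCR libraries, 9647686 to 18349039 in the Crlf2-deleted libraries and 1439675 to 12179230 in the lung controls. Levels are given as CPM, which are reads scaled to a common library size by TMM over all 10 libraries, and, where genes are compared, as the authors' RPKM, which divides by transcript length. Crlf2 had 8.45, 6.30 and 3.34 CPM in the Crlf2-deleted libraries, against 86.1, 134 and 97.2 CPM in the lung controls, so its level follows the genotype labels. Foxp3, the factor that defines Tregs, was present in all libraries, at 160 ± 12.5 CPM with TSLP and 184 ± 16 CPM with TCR alone (SD, n = 2 each), and at 407 ± 49.3 CPM in the Crlf2-deleted libraries and 342 ± 137 CPM in the lung controls (SD, n = 3 each). The library called lung control 3 stood apart. Its summed CPM of 11 T cell and Treg markers was 3260, against 5390 to 6070 in the other 5 lung libraries, while markers of mast cells and basophils, eosinophils, B cells, NK and CD8 T cells and macrophages were higher there than in any other lung library. The lung fold changes and counts of calls are therefore given with and without it.

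The raw reads of the members were few in several libraries. Il4 and Il13 had at least 150 reads in every spleen library, whereas Il5 and Il3 had 2 to 5 reads in the TCR libraries. In the lung, Il4 had 2, 5 and 348 reads in the controls and Csf2 had 0, 2 and 5 in the Crlf2-deleted libraries. Il3 had 0 reads in all 6 lung libraries. The plot of CPM by library shows all of these values.

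**Figure D1:**
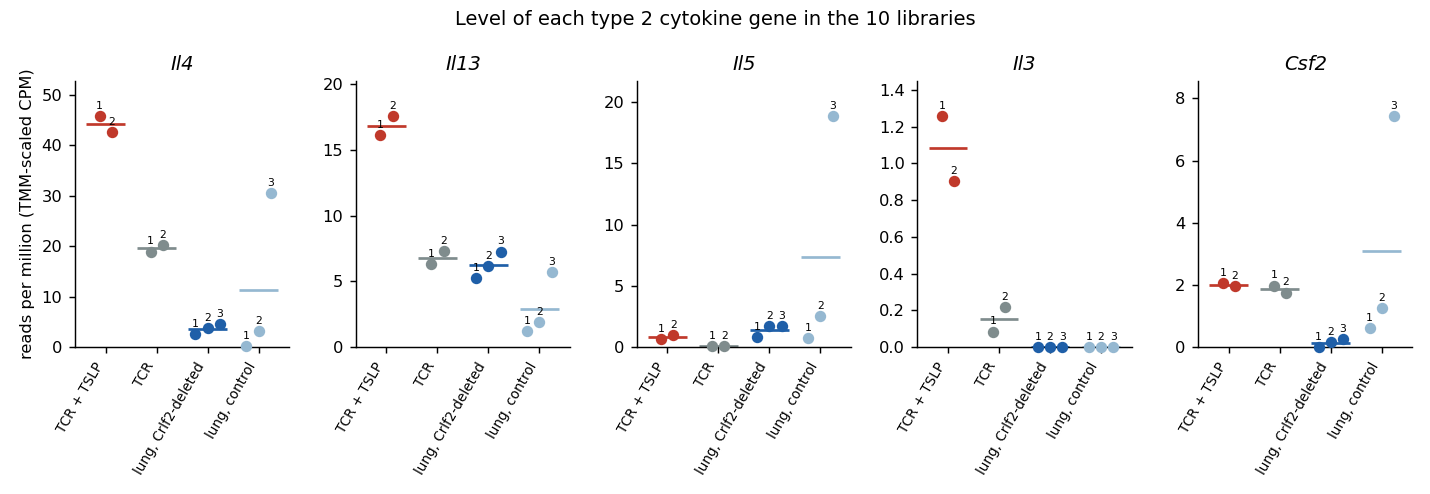
CPM of each of the 5 genes (y axis, linear, its own scale for each gene) in the TCR + TSLP, TCR, Crlf2-deleted lung and control lung libraries. Each point is 1 library with its replicate number and each bar the group mean. Il4, Il13, Il5 and Il3 are higher in both TCR + TSLP libraries than in both TCR libraries, and lung control 3 lies above the other lung libraries in Il4, Il5 and Csf2.

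TSLP raised 4 of the 5 genes in stimulated spleen Tregs. Il5 rose 8.78-fold and Il3 6.75-fold from very low levels, Il13 rose 2.40-fold and Il4, the most abundant of the 5, rose 2.18-fold. Csf2 was 1.03-fold and did not pass the test. Of all 13214 genes tested, 22.7% rose (2999 genes) and 23.1% fell (3051 genes) with TSLP, so that 4 rises among 5 members are read against a comparison in which change was common. These are bulk libraries, in which more cells that make a cytokine cannot be told apart from more RNA per cell.

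Il4, the cytokine of Th2 differentiation, had 1522 and 2112 reads with TSLP, against 448 and 461 reads with TCR alone. These were 45.8 and 42.5 CPM in the TCR + TSLP libraries, against 18.9 and 20.2 CPM in the TCR libraries. Both TCR + TSLP libraries lay above both TCR libraries, and the gap between the groups was larger than the spread within either pair. The log2 fold change was 1.13 (SE 0.10, 95% interval of the fold 1.85 to 2.58, adjusted p = 0.000213 by edgeR's quasi-likelihood test with Benjamini-Hochberg adjustment over all genes, which is the test behind every adjusted p below unless another is named). Shorter transcripts as a class were lower with TSLP, and the median log2 fold change of the 388 genes with a length near that of Il4 (585 bp) was -0.94. With the trend on transcript length removed, Il4 rose 4.03-fold (adjusted p = 0.000327).

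Il13, the effector cytokine of the airway, had 535 and 876 reads with TSLP, against 150 and 166 reads with TCR alone. These were 16.1 and 17.6 CPM with TSLP, against 6.32 and 7.28 CPM with TCR alone. The groups did not overlap, and the log2 fold change was 1.26 (SE 0.14, fold interval 1.93 to 2.99, adjusted p = 0.000373).

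Il5, the cytokine that supports eosinophils, had 21 and 48 reads with TSLP, against 2 and 2 reads with TCR alone. These were 0.632 and 0.966 CPM with TSLP, against 0.0843 and 0.0877 CPM with TCR alone. Although the gene stayed under 1 CPM, the groups did not overlap. The fitted log2 change was 3.13 (adjusted p = 0.0042, SE 0.60), and its fold interval of 3.36 to 23.0 shows how little 4 reads in the TCR group fix the size of the rise. From the reads summed over each group (69 against 4), the ratio of TCR + TSLP to TCR was 9.68, with an exact 95% interval from 3.61 to 36.5 that covers counting error only.

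Il3, a growth factor of mast cells and basophils, had 42 and 45 reads with TSLP, against 2 and 5 reads with TCR alone. These were 1.26 and 0.906 CPM with TSLP, against 0.0843 and 0.219 CPM with TCR alone. Again the groups did not overlap. The log2 fold change was 2.76 (SE 0.55, fold interval 2.80 to 16.3, adjusted p = 0.00495), and the summed reads (87 against 7) gave 6.98 times the CPM, where the exact counting interval is 3.25 to 17.9. Without the TCR + TSLP library 1, Il3 had an adjusted p of 0.0572, and without the TCR + TSLP library 2, Il5 had one of 0.111. Without the TCR library 2, the fold of Il3 was 11.8. Removal of the length trend gave Il3 a fold of 10.1.

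Csf2, which encodes GM-CSF, had 68 and 97 reads with TSLP, against 47 and 40 reads with TCR alone. These were 2.05 and 1.95 CPM with TSLP, against 1.98 and 1.75 CPM with TCR alone. The groups overlapped in CPM, and the log2 fold change was 0.05 (SE 0.26, fold interval 0.679 to 1.57, adjusted p = 0.898). In the authors' RPKM, whose library totals differ from the reads listed, Csf2 was 0.840 and 0.802 with TSLP, against 0.617 and 0.607 with TCR alone, and these ranges did not overlap. RPKM ran higher with TSLP for genes at large. By limma on log2(RPKM + 0.1), the median log2 fold change of all genes was 0.33. On this scale Csf2 was at 0.37 (adjusted p = 0.0757 by limma). The share of all genes whose spleen groups did not overlap in RPKM was not computed. In the main fit, the 1.57-fold upper bound lies below the lower bounds of Il4, Il5, Il13 and Il3, which are 1.85, 3.36, 1.93 and 2.80. Genes with a length near that of Csf2 had a median log2 fold change of -0.48. With the length trend removed, Csf2 was 1.42-fold (log2 0.51, SE 0.25, adjusted p = 0.147), beside 4.03-fold for Il4, 10.2 for Il5, 3.10 for Il13 and 10.1 for Il3.

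Groups that did not overlap were common in this comparison. In 41.4% of all genes tested, both TCR + TSLP libraries lay above both TCR libraries in CPM, as Il4, Il13, Il5 and Il3 did. When the 2 spleen groups were fitted together with the lung groups, the spread among lung libraries entered the test. In this fit 3.75% of all genes were called higher with TSLP and none of the 5 members was. The adjusted p from edgeR was 0.183 (Il13), 0.190 (Il5), 0.238 (Il3) and 0.670 (Il4). Before adjustment, 2 members (Il5 and Il13) were under 0.05, and how many of all genes were was not counted for this fit.

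Markers of other cells that make these cytokines were read in all spleen libraries. The part of such cells in the TSLP result was not tested. The 12 mast cell and basophil markers summed to 7.79 to 8.41 CPM with TSLP, against 9.19 to 10.5 CPM with TCR alone, and 2 or 3 of them were at 0 in each TCR + TSLP library and 2 to 5 in each TCR library. The 9 ILC2 markers summed to 8.27 to 8.50 CPM with TSLP, against 6.49 to 9.36 CPM with TCR alone. Neither sum was higher with TSLP beyond the range of the TCR libraries. Both sums were above the CPM of Il5 and of Il3 in every spleen library. The sums for B cells (123 to 132 CPM with TSLP, against 158 to 169 CPM with TCR alone) and for NK and CD8 T cells (28.6 to 30.3 CPM with TSLP, against 45.6 to 46.2 CPM with TCR alone) were lower with TSLP, and those of T cells and Tregs were 5050 to 5140 CPM with TSLP, against 5240 to 5380 CPM with TCR alone.

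**Figure D2:**
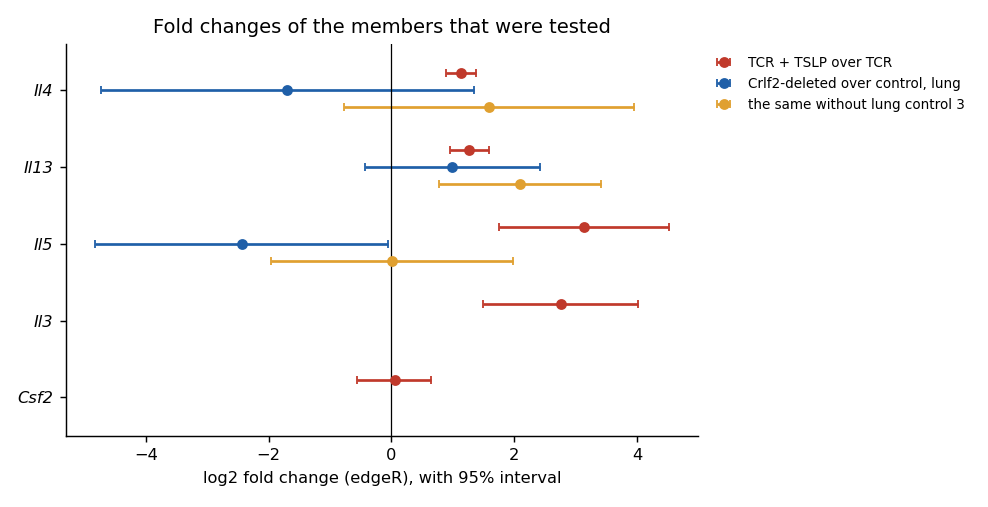
Log2 fold change (x axis) of each gene with its 95% interval, for TCR + TSLP over TCR (red), for Crlf2-deleted over control lung Tregs (blue) and for the same without lung control 3 (yellow). Il3 and Csf2 have no lung value because their counts were below the filter. The red intervals of Il4, Il13, Il5 and Il3 exclude 0, and the yellow points of Il4, Il13 and Il5 lie to the right of the blue ones.

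In the lung, none of the 3 members that could be tested passed the threshold between Crlf2-deleted and control Tregs, and the 3 controls differed so much among themselves that the direction for Il4 and Il5 rested on lung control 3. Il13 was higher in each Crlf2-deleted library than in controls 1 and 2. By CPM, Csf2 was lower in every Crlf2-deleted library, at 0 to 5 reads, than in any control. How many of all genes were separated in these ways in the lung was not computed. By edgeR, 1 of the 3 (Il5) was under 0.05 before adjustment, as were 2017 of all 12717 genes tested. DESeq2 called 1 member, Csf2, which the filter of edgeR left out. Of the 12717 genes tested, 1.79% passed the threshold, 0.771% higher (98 genes) and 1.01% lower (129 genes) in the Crlf2-deleted group. Il3 and Csf2 were below the filter on low counts.

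Il4 had 29, 50 and 94 reads in the Crlf2-deleted libraries, against 2, 5 and 348 in the lung controls. These were 2.64, 3.75 and 4.62 CPM in the Crlf2-deleted libraries, against 0.248, 3.14 and 30.5 CPM in the controls. The Crlf2-deleted libraries lay close together and inside the range of the controls. The log2 fold change was -1.70 (SE 1.27, fold interval 0.0376 to 2.53, adjusted p = 0.581). Without lung control 3 it turned to 1.59 (SE 1.04, fold 3.01, interval 0.588 to 15.4, adjusted p = 0.457). The ratio of Crlf2-deleted to control CPM from summed reads (173 against 7 in controls 1 and 2) was then 5.34, where the exact counting interval, 2.54 to 13.5, leaves out the spread between libraries.

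Il5 had 9, 23 and 35 reads in the Crlf2-deleted libraries, against 6, 4 and 216 in the lung controls. These were 0.818, 1.72 and 1.72 CPM in the Crlf2-deleted libraries, against 0.744, 2.51 and 18.9 CPM in the controls. All 3 Crlf2-deleted libraries lay between controls 1 and 2. The log2 fold change was -2.44 (SE 1.04, fold interval 0.0351 to 0.966, adjusted p = 0.307), and without lung control 3 it was 0.01 (SE 0.87, interval of the fold 0.257 to 3.95, adjusted p = 0.997).

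Il13 had 58, 82 and 148 reads in the Crlf2-deleted libraries, against 10, 3 and 65 in the lung controls. These were 5.27, 6.15 and 7.27 CPM in the Crlf2-deleted libraries, against 1.24, 1.88 and 5.69 CPM in the controls. Controls 1 and 2 lay below all Crlf2-deleted libraries, and lung control 3 lay between the lowest and the middle of them. The log2 fold change was 0.99 (SE 0.62, fold interval 0.742 to 5.30, adjusted p = 0.496). Without lung control 3 it was 2.09 (SE 0.58, fold 4.24, interval 1.70 to 10.6), with an adjusted p of 0.0908 that still missed the threshold. By RPKM the groups did not overlap even with it, at 1.05, 1.17 and 1.58 in the Crlf2-deleted libraries, against 0.186, 0.258 and 0.981 in the controls. RPKM ran higher in the Crlf2-deleted group for genes at large. By limma on log2(RPKM + 1), the median log2 fold change of all genes was 0.21, against -0.04 by edgeR, with 762 genes higher and 94 lower. The share of all genes whose lung groups did not overlap was not computed.

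Csf2 had 0, 2 and 5 reads in the Crlf2-deleted libraries, against 5, 2 and 85 in the lung controls. These were 0, 0.150 and 0.246 CPM in the Crlf2-deleted libraries, against 0.620, 1.26 and 7.44 CPM in the controls. The groups did not overlap, but the counts are very few, and the share of all genes separated in this way in the lung was not computed. Fitted without the filter, the log2 fold change was -4.41 (adjusted p = 0.156), and without lung control 3 as well it was -2.55 (adjusted p = 0.492). DESeq2 called it (adjusted p = 0.0219), where 4.06% of all genes were called lower, and so did edgeR with all 4 groups in 1 fit (adjusted p = 0.0366), where 3.42% were called lower. Summed over the Crlf2-deleted libraries and over controls 1 and 2, Csf2 had 7 and 7 reads, and the CPM of the first was 0.216 times that of the second, where the exact counting interval is 0.0646 to 0.722.

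Il3 was not detected in the lung. Its 0 of 39578323 reads in the Crlf2-deleted group allow a level of up to 0.0671 CPM, and its 0 of 21589118 reads in the control group allow up to 0.142 CPM, taking 3 reads over the group as the limit. Both limits cover counting error only. Both lie below the 1.26 and 0.906 CPM of the TCR + TSLP libraries, but beside the 0.0843 and 0.219 CPM of the TCR libraries the control limit is above the lower value, so that a lower level than with TCR alone was not detectable there.

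The markers of other cells moved with some of these values. The 12 mast cell and basophil markers summed to 9.03 to 11.3 CPM in the Crlf2-deleted libraries, against 12.2, 18.2 and 302 CPM in lung controls 1, 2 and 3, with 1 to 3 of them at 0 in each Crlf2-deleted library and 1 or 2 in each control. Mcpt8, a basophil protease, had 3, 6 and 6 reads in the Crlf2-deleted libraries, against 4, 3 and 488 in the controls. Mrgprb2, a mast cell receptor, was at 0 in all 6. The 6 eosinophil markers summed to 18.4 to 20.3 CPM in the Crlf2-deleted libraries, against 16.2, 24.5 and 129 CPM in the controls, with Epx, the eosinophil peroxidase, at 0 throughout. The lung control with the highest Il4, Il5 and Csf2 is thus the one with the highest mast cell, basophil and eosinophil markers, and the part of these cells in the result was not tested.

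Macrophage and dendritic cell markers (9 genes) summed to 2250 to 2510 CPM in the Crlf2-deleted libraries, against 377, 695 and 7530 CPM in the controls. B cell markers (7 genes) summed to 13.9 to 25.2 CPM in the Crlf2-deleted libraries, against 19.2, 20.1 and 349 CPM in the controls. Those of NK and CD8 T cells (7 genes) summed to 8.91 to 23.3 CPM in the Crlf2-deleted libraries, against 17.2, 15.1 and 152 CPM in the controls. Lung epithelial markers (9 genes) summed to 2160 to 17000 CPM in the Crlf2-deleted libraries, against 15200 to 73600 CPM in the controls.

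ILC2, which make Il5 and Il13, share several surface genes with lung Tregs. The 9 markers summed to 953, 705 and 989 CPM in the Crlf2-deleted libraries, against 461, 553 and 370 CPM in the lung controls, and the groups did not overlap. No marker of the list was at 0 except 1 in lung control 2. Of the 8 markers tested, 2 rose, 0 fell and 6 did not pass (Il1rl1, Il17rb, Rora, Il9r, Arg1 and Nmur1), where 0.771% of all genes rose and 1.01% fell. Calca, which encodes the neuropeptide CGRP, rose (log2 2.96, SE 0.39, adjusted p = 0.0162, and 3.42 with adjusted p = 0.00503 without lung control 3). Klrg1, an inhibitory receptor that effector Tregs also carry, rose too (269 CPM in the Crlf2-deleted libraries and 112 CPM in the controls on average, adjusted p = 0.0354, and 0.0185 without lung control 3), but not with the length trend removed (adjusted p = 0.079). Without lung control 3, 4 of the 8 rose, where 1.95% of all genes did. The others were Nmur1, the receptor for neuromedin U (log2 3.02, adjusted p = 0.0164, against an adjusted p of 0.0777 with it), and Arg1, the arginase gene (3.13, adjusted p = 0.0141, against 1.08 and 0.648 with it). Nmur1 had 23.4, 10.5 and 20.9 CPM in the Crlf2-deleted libraries, against 2.11, 2.51 and 6.13 CPM in the controls. Hs3st1, the marker below the filter, had 0.545, 0.975 and 0.0982 CPM in the Crlf2-deleted libraries, against 0.124, 0 and 8.05 CPM in the controls. Calca, Nmur1, Arg1, Klrg1, Il17rb and, barely, Il9r were each higher in all Crlf2-deleted libraries than in lung controls 1 and 2, as was Il13. Il1rl1, Rora and Hs3st1 were not. The summed macrophage and dendritic cell markers, at 2250 to 2510 CPM against 377 and 695 CPM, were also higher in this way. How many of all genes were higher in this way was not computed, and Il13 and Nmur1 had 3 and 4 reads in lung control 2. The part of ILC2 in the result was not tested.

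**Figure D3:**
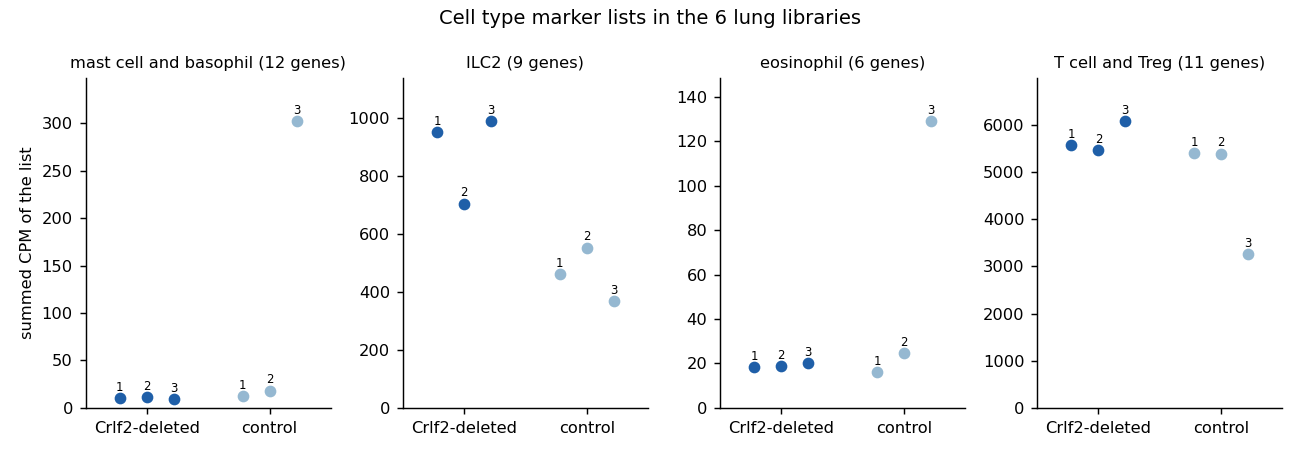
Summed CPM (y axis, linear) of 4 marker lists in the Crlf2-deleted and control lung libraries, 1 point per library with its replicate number. Lung control 3 lies far above the others in the mast cell and basophil list (302 CPM) and the eosinophil list (129 CPM) and below them in the T cell and Treg list (3260 CPM), and the ILC2 list is higher in all Crlf2-deleted libraries.

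The members' shares of their summed RPKM differed between the tissues. By RPKM, Il4 was the highest member in all 4 spleen libraries, with 80.0 to 82.0% of the summed RPKM of the 5 genes, and Il13 was next with 13.2 to 16.1%. TSLP raised the sum to 40.5 and 38.6 RPKM, against 12.7 and 15.2 RPKM with TCR alone, with the shares of Il4 and Il13 at 80.0 to 82.0% and 14.0 to 16.1% with TSLP and 81.1 to 81.5% and 13.2 to 14.2% with TCR alone. In the Crlf2-deleted lung libraries Il4 held 47.9 to 51.7% and Il13 39.5 to 46.5%. In lung controls 1, 2 and 3, Il4 held 16.7, 54.9 and 68.2% and Il13 held 40.5, 16 and 6.18%. The 3 Crlf2-deleted libraries had nearly the same make-up, while no such common make-up was seen among the controls, of which controls 1 and 2 rest on 23 and 14 reads over all 5 genes.

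**Figure D4:**
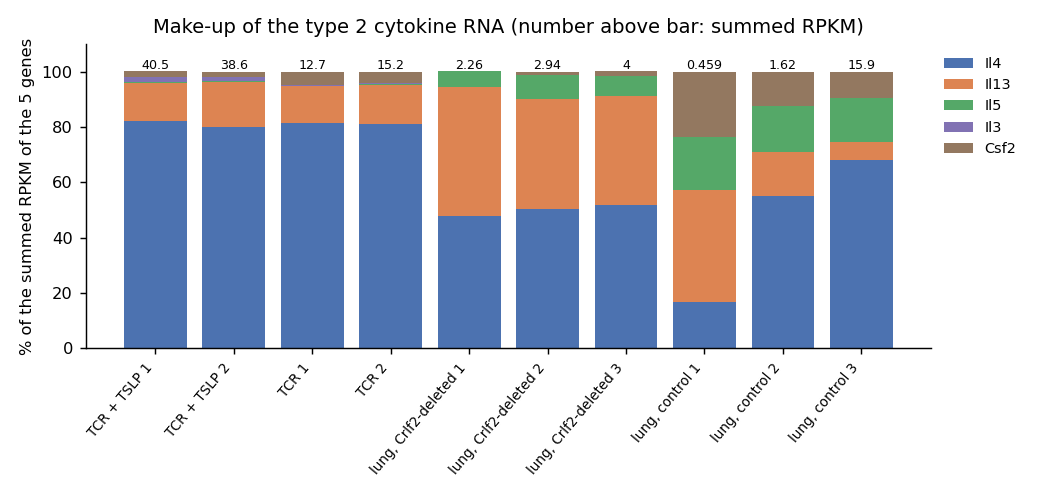
Share of each gene in the summed RPKM of the 5 genes (y axis, percent) in each library, with the summed RPKM above the bar. The 4 spleen libraries share a make-up of 80.0 to 82.0% Il4, the 3 Crlf2-deleted libraries one of 47.9 to 51.7% Il4 and 39.5 to 46.5% Il13, and the 3 lung controls differ among themselves.

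Across the 4 groups, mean RPKM of Il4 was 32 with TSLP, 11.4 with TCR alone, 1.54 in the Crlf2-deleted lung and 3.93 in the control lung, and the control range overlapped those of the TCR and the Crlf2-deleted groups. Il13 was 5.93 with TSLP, 1.92 with TCR alone, 1.27 in the Crlf2-deleted lung and 0.475 in the control lung, with no overlap between neighbouring groups in RPKM. In CPM, the Crlf2-deleted range of Il13 overlapped those of the TCR group and the lung controls. Il5 was 0.221 with TSLP, 0.0191 with TCR alone, 0.227 in the Crlf2-deleted lung and 0.974 in the control lung. Its control, Crlf2-deleted and TCR + TSLP ranges overlapped. Csf2 was 0.821 with TSLP, 0.612 with TCR alone, 0.0319 in the Crlf2-deleted lung and 0.602 in the control lung, where the TCR range lay inside that of the lung controls. Spleen and lung libraries differ in tissue, culture and perhaps library kit, so no test was made between them.

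The ratio of reads between the 2 deposited rows of Il4 differed between the lung groups, a pattern noticed after the values were seen. Row NM_021283, used above, has 4 exons and begins at the upstream start. Row NR_027491 has 3 exons, with a first exon of its own (53617081 to 53617338) inside an intron of the other row, and shares the last 2 exons, 347 bp, with it. The downstream-start row had 48, 71 and 135 reads in the Crlf2-deleted libraries, against 1, 4 and 263 in the lung controls. Divided by the upstream-start row, this is 1.66, 1.42 and 1.44 in the Crlf2-deleted libraries, against 0.5, 0.8 and 0.756 in the controls. The downstream-start row exceeded the upstream-start row in these 3 libraries and in none of the other 7, and the groups did not overlap. The mean ratio was 1.5 ± 0.131 in the Crlf2-deleted libraries and 0.685 ± 0.162 in the controls (SD, n = 3 each). No test is given, since the pattern was picked for this separation. How reads in the 347 bp shared by the rows were assigned is not stated, so some reads may count in both. Reads in the first exon of the downstream-start row cannot be told apart from reads of the intron it lies in. Lung controls 1 and 2 contribute 3 and 9 reads over the 2 rows, so that the control ratio rests on lung control 3 and there is no usable ratio without it. In spleen the ratio was 0.813 and 0.778 with TSLP, against 0.935 and 0.876 with TCR alone. With the downstream-start row in its place, Il4 rose with TSLP by a log2 of 0.94 (adjusted p = 0.000497), and its lung log2 fold change was -0.74 (adjusted p = 0.824).

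**Figure D5:**
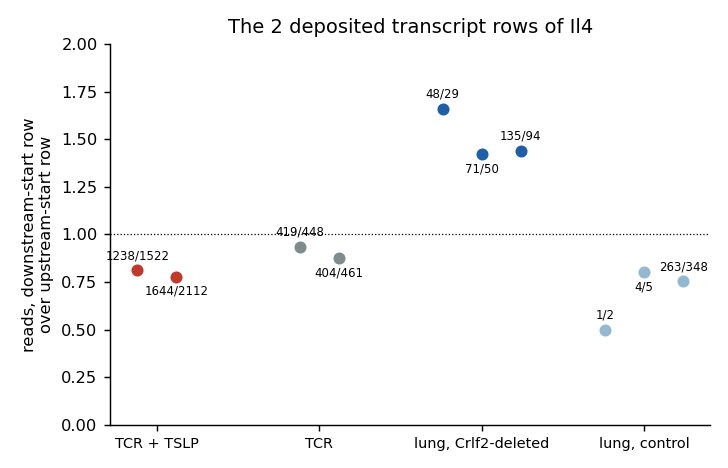
Reads of the downstream-start row of Il4 divided by those of the upstream-start row (y axis) in each library, with both read counts beside the point. The 3 Crlf2-deleted lung libraries lie at 1.42 to 1.66, above the dotted line of equal reads, and the other 7 lie below it.

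Among genes that regulate this locus, rises with TSLP outnumbered falls, but 16 of 36 did not pass. Of these 36 transcription factors, signalling factors and chromatin regulators known to act on it in T cells, all tested, 17 rose and 3 fell, where 22.7% of all genes rose and 23.1% fell, and the median log2 fold change was 0.27 beside 0.01 for all genes. Satb1, a chromatin organizer of the Th2 locus, had 611 ± 18.5 CPM with TSLP and 291 ± 21.6 CPM with TCR alone (log2 1.02, SE 0.09, adjusted p = 0.000189). Bhlhe40, a factor that promotes cytokine production by T cells, had 171 ± 6.24 CPM with TSLP and 81.0 ± 7.71 CPM with TCR alone (log2 1.03, SE 0.10, adjusted p = 0.000226; SD, n = 2 libraries each). Irf4, a factor needed for Th2 and effector Treg differentiation, rose by a log2 of 0.82 (adjusted p = 0.000332). Tcf7, which promotes Gata3 expression in early Th2 cells, rose by 0.87 (adjusted p = 0.000745). Bcl6, a repressor of Th2 genes that also changed in the lung, fell by 1.26 on the log2 scale (adjusted p = 0.00119). Gata3, the master factor of Th2 cells, had a log2 fold change of -0.17 (adjusted p = 0.266). Foxp3 had one of -0.25 (adjusted p = 0.0762), and -0.36 (adjusted p = 0.0128) with the length trend removed. That removal also took away the calls of Ikzf1, Runx3, Stat5a, Nfatc2, Nfatc3 and Jun as rises and of Batf as a fall. It added calls of Irf1, Cebpb and Mbd2 as rises and of Eomes as a fall.

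Of 9 receptor chains for the member cytokines, 7 were tested, 2 rose, 2 fell and 3 did not pass, shares near those of all genes (22.7% higher and 23.1% lower). Il3ra, the specific chain for IL-3, fell by 1.03 on the log2 scale (adjusted p = 0.000338) and Csf2rb2, the mouse IL-3 receptor beta chain, fell by 1.09 (adjusted p = 0.0292). Il4ra rose by 0.31 (adjusted p = 0.0171, but 0.18 and 0.0863 with the length trend removed) and the common gamma chain Il2rg by 0.26 (adjusted p = 0.0475). The list of TSLP, alarmin and Th2 surface receptors held 15 genes, among them the IL-2 receptor chains Il2ra and Il2rb. Of these 15, 14 had rows and 13 were tested. Among those tested, 6 rose and 1 fell (22.7% and 23.1% of all genes did), with a median of 0.47. Ccr4 and Ccr8, chemokine receptors of Th2 cells and tissue Tregs, rose by 1.53 (adjusted p = 0.000159) and 1.46 (adjusted p = 0.000171). Il2rb rose by 0.86 (adjusted p = 0.000357) and Il7r, which encodes the second chain of the TSLP receptor, by 1.06 (adjusted p = 0.000393). Crlf2 itself fell by 0.43 (adjusted p = 0.00799), and with the length trend removed it was at -0.14 (adjusted p = 0.23). Of 25 other T cell cytokines, 21 were tested, 7 rose, 3 fell and 11 did not pass (22.7% and 23.1% of all genes rose and fell), with a median of 0.20. Tnfsf8, which encodes CD30 ligand, rose by 1.88 (adjusted p = 0.000159). Lif rose by 1.11 (adjusted p = 0.000159) and Osm, of the same cytokine family, by 0.77 (adjusted p = 0.00245), while the lymphotoxin gene Ltb fell by 0.51 (adjusted p = 0.00232) and was at -0.09 with the length trend removed.

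In the lung few genes of these lists passed. Of 35 regulators tested, Pparg, a factor of tissue Tregs and Th2 cells, rose (39.6 ± 8.42 CPM in the Crlf2-deleted libraries and 9.89 ± 3.43 CPM in the controls, SD, n = 3 each, log2 1.93, SE 0.30, adjusted p = 0.0261, and 2.28 with adjusted p = 0.00601 without lung control 3). Bcl6 fell by 1.07 on the log2 scale (adjusted p = 0.0377, and 0.0461 without lung control 3), a call lost with the length trend removed (adjusted p = 0.0589). Gata3 had 1460 ± 212 CPM in the Crlf2-deleted libraries and 716 ± 227 CPM in the controls (log2 1.01, SE 0.24, adjusted p = 0.0897), and without lung control 3 it passed (0.77, adjusted p = 0.0193). None of the 8 receptor chains tested passed. Of 14 TSLP, alarmin and Th2 surface receptors tested, Il7r (log2 1.29, adjusted p = 0.0161) and Ccr8 (log2 1.85, adjusted p = 0.0196) rose. Crlf2 fell by 4.16 on the log2 scale (adjusted p = 0.00465). Without lung control 3 these were 1.23 (0.00897), 1.71 (0.0125) and -4.22 (0.00173), each with its adjusted p. Of 17 other cytokines tested, Il10, the anti-inflammatory cytokine of effector Tregs, rose (188 ± 17.0 CPM in the Crlf2-deleted libraries and 39.8 ± 16.8 CPM in the controls, SD, n = 3 each, log2 2.27, SE 0.29, adjusted p = 0.0160, and 1.98 with adjusted p = 0.0023 without lung control 3), and it was the gene of that list called. Without lung control 3, 1.95% of all genes were called higher and 2.17% lower. The receptor chains then had 2 rises and 1 fall, and their median turned to 0.24, against -0.85 with that library. The regulators had 3 rises and 2 falls, the TSLP, alarmin and Th2 surface receptors 2 and 2, and the other cytokines 1 and 0.

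The members' neighbours within 300 kb did not move as a block. Of 22 symbols with rows, 14 were tested. With TSLP 7 rose and 3 fell (22.7% and 23.1% of all genes did), with log2 fold changes from -1.47 to 1.10 and a median of 0.34. Kif3a, a kinesin subunit and the neighbour of Il4, rose by a log2 of 0.81 (adjusted p = 0.000862) and Rad50, a DNA repair gene between Il13 and Il5 whose 3′ end holds the Th2 locus control region, by 0.62 (adjusted p = 0.00117). Aff4, a scaffold of the super elongation complex, rose by 0.48 (adjusted p = 0.0071). Uqcrq, a subunit of respiratory complex III, fell by 1.34 (adjusted p = 0.000159), Pdlim4 by 0.79 (adjusted p = 0.00389) and Gm12216 by 1.47 (adjusted p = 0.0043). With the length trend removed these falls were -0.36, -0.42 and -1.08 and still passed. In the lung, Zcchc10 (log2 1.36, adjusted p = 0.0327) and Aff4 (log2 0.96, adjusted p = 0.0242) rose and 0 fell, where 0.771% of all genes rose and 1.01% fell. With the length trend removed both had an adjusted p of 0.0542. Without lung control 3 there were 3 rises and 1 fall and the median was 0.46, against 0.02 with it. Zcchc10 (1.28, adjusted p = 0.0352), Aff4 (0.84, adjusted p = 0.012) and Kif3a (1.81, adjusted p = 0.0372) then rose and Irf1 fell by 0.60 (adjusted p = 0.046). Rad50 had a log2 fold change of 0.70 with all libraries (adjusted p = 0.119). The rises of Il5 and Il3 with TSLP, at 3.13 and 2.76, were larger than that of any neighbour tested.

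The genes whose log2 CPM followed each member most closely over the 10 libraries, among 14618 genes, were found by Pearson's r. For Il4 they were Pik3cb (0.964), Zak (0.962) and Rcan1 (0.961), for Il13 Tmem5 (0.975), Nfil3 (0.958) and Impdh1 (0.956), and for Il5 Gpd1l (0.970), Prf1 (0.953) and Mtm1 (0.944). For Il3 they were Zfp184 (0.984), Cstf3 (0.984) and Hnrnpk (0.982), and for Csf2 Gm8221 (0.965), Pdlim1 (0.951) and Asap1 (0.949). No member was among the 3 closest genes of another. The libraries share tissue, culture and depth within each pair of groups, and these values describe likeness over 10 libraries only.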

How the data were processed

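RNA-seq tables of 10 libraries were used. The deposited read counts per RefSeq transcript row are whole numbers, and the deposited RPKM were made by the authors from reads, transcript length and a library total larger than the reads listed, per the file headers and values (listed reads came to 52.9 to 63.8% of that total in spleen and 21.2 to 33.8% in lung). The submitters' processing notes list mm10, edgeR, TopHat2 2.2.1, Bowtie2 2.2.6, bedtools 2.25.0 and SAMtools 0.1.8. What each tool did, whether strand was used and how multimapping reads were counted is not stated there. Per the labels' protocols, reads were 50 bp single ends, and TCR-stimulated nTregs went through a stranded total RNA kit; the kit of the lung Tregs is not stated separately.

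From these, counts were tested within each comparison by the two-sided quasi-likelihood test of edgeR 4.0.16 (R 4.3.3; TMM factors, robust moderation, a filterByExpr minimum count of 10, Benjamini-Hochberg adjusted over all genes, threshold 0.05). The SE is the log2 fold change divided by the root of F. Lists and neighbours were described by counts and medians. Named beside the 5 members were Crlf2 and Foxp3, Gata3, up to 4 genes of each list and up to 6 neighbours by smallest p among those past the threshold, and the 3 closest genes of each member; Mcpt8, Mrgprb2, Epx, the ILC2 markers, Rad50, Kif3a and Irf1 in the lung and Bcl6 with TSLP were picked from the marker lists, neighbours and regulators after their values were seen. Regulators whose TSLP call changed with the length trend removed were named as well. The members and lists were chosen with earlier results of these data known. Alternatives were DESeq2 1.42.0, limma 3.58.1 on log2(RPKM + 1) and log2(RPKM + 0.1), other scalings, no filter, summed rows, the replicate number as a block, all 4 groups in 1 fit, removal of a loess trend on length (span 0.3) and leaving out each library. Lists, neighbours, ILC2 markers and summed-read ratios without lung control 3, the unfiltered Csf2 fit without it, the other Il4 row and a crossed block were added after seeing the data. All replicate pairs differed beyond counting noise (chi-square per degree of freedom 5.80 to 161). Whether replicates came from separate animals or cultures is not in the labels, and p-values therefore reflect only how these samples vary, which may be technical. The smallest library, lung control 2, had 1439675 reads and gives the least precise values.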

Additional observations from a re-analysis of the deposited data

How the results depend on the processing

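With TSLP, Il4, Il13, Il5 and Il3 kept their rise and their side of the threshold under every alternative except these. With all 4 groups in 1 fit, 1356 genes passed, against 6050, and 0 members, with log2 fold changes of 1.17 (Il4, adjusted p = 0.670), 3.12 (Il5, 0.190), 1.31 (Il13, 0.183) and 2.79 (Il3, 0.238). Leaving out each library gave 3212 to 8624 genes and 3 to 4 members; the log2 fold changes ranged from 2.78 (adjusted p = 0.111, without TCR + TSLP 2) to 3.37 for Il5 and from 2.22 to 3.56 for Il3 (2.50, adjusted p = 0.0572, without TCR + TSLP 1), and Csf2 from -0.03 to 0.14. On log2(RPKM + 1), where low values shrink, Il5 was 1.20-fold and Il3 1.45-fold (8.78 and 6.75 by edgeR), and on log2(RPKM + 0.1) 2.68-fold and 4-fold. With library totals alone the median of all genes moved to 0.24 and the split of calls to 5059 higher and 2000 lower, against 2999 and 3051. On log2(RPKM + 1) it was 5681 and 1249, and on log2(RPKM + 0.1) 5606 and 1366.

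In the lung, 227 genes passed (98 higher, 129 lower), against 942 by DESeq2, 873 with all 4 groups in 1 fit, 134 with summed rows, 856 on log2(RPKM + 1), 804 on log2(RPKM + 0.1) and 96 with the length trend removed. Library totals alone gave 137 higher and 57 lower, with a median of 0.14, and the limma fits gave 762 higher and 94 lower and 719 higher and 85 lower. Leaving out each library gave 4 to 532 genes, the highest without lung control 3. Members past the threshold were 0, and 1 (Csf2) by DESeq2 and with all 4 groups in 1 fit. Il4 was at 0.36 on log2(RPKM + 0.1) and at 1.59 without lung control 3, where Il5 was at 0.01; left-out libraries gave -2.30 to 1.59 for Il4 and -3.00 to 0.01 for Il5. The causes were not tested.

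Libraries of the same replicate number were not more alike (correlations of -0.13 in spleen and -0.15 to 0.08 in lung) than those of different numbers (0.13 and -0.15 to 0.18). With 2 libraries per spleen group these values can differ only in sign, so they cannot settle whether the samples were paired. The replicate block gave 5817 genes and 4 members with TSLP, and 121 genes and 0 members in the lung, where Il4 was at -0.11 and Il5 at -1.44. A crossed block gave 7107 genes and 4 members with TSLP. Depth limits Il5 and Il3 with TCR alone, all members in lung control 2, and Il3 and Csf2 in the lung.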
